A study of Mus musculus with 8 samples.

Results

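The genes described here are those of glucose uptake, glycolysis and pyruvate handling together with genes of the response to low oxygen. They were a written list of 41 mouse genes, of which 38 were represented by a probe set with a single gene symbol, out of 18193 genes so represented on the arrays. Of the 38, 37 were bright enough to enter the test, among 10916 tested genes. Gpi1, Eno1 and Pfkfb1 had no probe set of a single symbol and were not analysed here, and Car9, a carbonic anhydrase gene induced by low oxygen, lay below the level filter. Its signals were 23.5, 7.01, 8.27 and 27.1 in Control replicates 1 to 4 and 10.9, 14.6, 21.9 and 35.7 in Bmi1 replicates 1 to 4, so its groups overlapped. By role the tested genes were 2 glucose transporters, 11 glycolytic enzymes, 8 genes of lactate and pyruvate handling, 3 PFKFB enzymes, 4 genes of the hypoxia-inducible factors and their prolyl hydroxylases, and 9 other targets of those factors.

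Expression was compared between 4 arrays titled as control and 4 titled as Bmi1, a Polycomb protein that represses, among other loci, Ink4a-Arf. The cells of both groups came from Ink4a-Arf-null mouse embryos, so that locus was absent from the controls as well. Per the labels they were Dlk-positive hepatoblasts, the fetal progenitors of hepatocytes and bile duct cells, isolated with magnetic beads from the liver at embryonic day 14.5. After 12 to 18 h on collagen-coated plates they received EGFP (Control) or Bmi1 by transduction, and they were then kept in medium with 50 ng/ml HGF and 20 ng/ml EGF. Transduced cells were isolated by flow cytometry at day 28, and an amount of RNA matching 10000 cells was amplified in a 2-cycle protocol. The numbers 1 to 4 in the titles are shared by both groups, and the series reports 4 independent experiments. The sources used here do not name the promoter behind the transgenes or the oxygen level of the cultures.

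Glycolysis converts glucose to pyruvate through a chain of cytosolic enzymes. Pyruvate is reduced to lactate by lactate dehydrogenase or enters the mitochondria, where pyruvate dehydrogenase, which the PDK kinases inhibit, converts it to acetyl-CoA. The hypoxia-inducible factors HIF-1 alpha and HIF-2 alpha are marked for degradation by prolyl hydroxylases when oxygen is present. When stabilised they bind DNA with ARNT at the letters ACGTG or GCGTG and raise transcription of transporters, glycolytic enzymes, PDK1, lactate export and angiogenic factors. Both factors are controlled mainly through protein stability, which expression arrays do not measure. Hepatocyte maturation brings in gluconeogenesis, which shares the reversible enzymes of glycolysis.

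The promoters of 4 genes are printed because 2 belong to genes with separated groups (Pdk1 and Pfkl) and 2 to textbook targets of HIF-1 whose groups overlapped (Pgk1 and Ldha). Each line gives the 250 bases before the annotated start, 5' to 3' on the gene's strand, from RefSeq on build GRCm38.p6. Capitals mark ACGTG or GCGTG on either strand, which read CACGT or CACGC where the match is on the opposite strand, and CACGTG, a letter set also bound by other factors, overlaps both orientations. The windows are chr2:71872974-71873223 (plus strand) for Pdk1, chr10:78009808-78010057 (minus strand) for Pfkl, chrX:106186850-106187099 (plus strand) for Pgk1 and chr7:46845554-46845803 (plus strand) for Ldha, all upstream of the transcript.
Pdk1: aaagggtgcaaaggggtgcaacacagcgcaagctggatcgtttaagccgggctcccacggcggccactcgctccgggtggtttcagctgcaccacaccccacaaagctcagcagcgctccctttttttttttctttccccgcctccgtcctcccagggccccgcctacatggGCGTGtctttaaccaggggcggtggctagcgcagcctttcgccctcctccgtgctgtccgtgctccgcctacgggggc
Pfkl: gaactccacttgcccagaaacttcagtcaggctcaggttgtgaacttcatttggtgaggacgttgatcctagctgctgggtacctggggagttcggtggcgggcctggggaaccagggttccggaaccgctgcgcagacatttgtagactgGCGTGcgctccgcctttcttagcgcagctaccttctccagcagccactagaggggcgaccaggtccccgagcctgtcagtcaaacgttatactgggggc
Pgk1: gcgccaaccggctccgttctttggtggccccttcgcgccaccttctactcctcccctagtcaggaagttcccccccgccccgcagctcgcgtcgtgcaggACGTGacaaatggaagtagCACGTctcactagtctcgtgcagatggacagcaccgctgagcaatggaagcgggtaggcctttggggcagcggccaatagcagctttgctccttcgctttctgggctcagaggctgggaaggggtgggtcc
Ldha: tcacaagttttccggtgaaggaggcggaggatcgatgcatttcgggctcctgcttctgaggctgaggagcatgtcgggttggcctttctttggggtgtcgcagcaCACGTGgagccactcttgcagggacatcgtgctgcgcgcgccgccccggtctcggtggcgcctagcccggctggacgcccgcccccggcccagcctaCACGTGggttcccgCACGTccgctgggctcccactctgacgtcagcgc
Pdk1 and Pfkl held 1 marked stretch each, at -78 and -99 from the start. Pgk1 held 2 and Ldha held 3, of which 2 were CACGTG. A second annotated start of Pdk1 held none in its window, and a second start of Ldha held 1, at -59. The letters were present in 45 of 57 windows of 38 listed genes (78.95%), against 56.62% of 11434 windows of tested genes and 38.6% of all 32851 windows of the same length. These 38 are the listed genes with a window, Gpi1, Eno1 and Pfkfb1 included, and not the 38 with a probe set. Windows of several starts of 1 gene were counted separately, also where they overlapped. The median GC content was 60.4% for the listed genes and for the tested genes and 52.4% for all windows. CACGTG stood in 14.04% of the listed genes' windows, 8.4% of those of tested genes and 6.02% of all. The letters are a description of these windows and do not show that a factor was bound. Slc2a3, Epas1 and Ndrg1 had no window.

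The values are intensities on a linear scale with the same trimmed mean on every array, and the number of arrays limits the precision. Directions rest on the labels. The probe set for Bmi1 itself read 802, 395, 568 and 306 in the Control arrays and 318, 273, 328 and 197 in the Bmi1 arrays, lower in each pair of the same number. Its log2 difference was -0.89 (SE 0.32), with adjusted p-values from limma of 0.461 with no block and 0.0248 with the replicate block. The sources used here do not say whether this probe set lies within the introduced copy, so it does not check the labels. The hybridisation control BioC separated replicates 1 and 2 (198 to 274) from replicates 3 and 4 (97.0 to 119) in both groups, and the 3' to 5' signal ratio of Gapdh was 3.10 on Control 1 and 1.65 to 1.96 on the other arrays. Markers of hepatoblasts and hepatocytes (Afp, Alb, Ttr, Krt8 and others) were above background on all 8 arrays for 11 of 11 tested, and Dlk1, on which the cells had been isolated, averaged 1324 ± 685 in Control and 2242 ± 759 in Bmi1 (SD, n = 4 each, adjusted p = 0.676 without and 0.0507 with the block).

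Most of the 37 genes differed little between the groups. Slc2a3 was 4.60-fold higher and Pdk1 1.73-fold higher in the arrays labelled Bmi1, and these were the listed genes that passed a test, both with the replicate number as a block. Without a block 0 of 37 passed (limma, Benjamini-Hochberg over all tested genes, threshold 0.05), 4 had an unadjusted p under 0.05, and the smallest adjusted p was 0.103. Among all tested genes 0.165% passed in this model, 0.11% higher and 0.055% lower, and 853 had an unadjusted p under 0.05. With the replicate block 2 of 37 passed, against 3.33% of all tested genes (1.36% higher and 1.96% lower), so the share of listed genes was near that of the whole table. With replicates 1 and 2 against 3 and 4 as the block the same 2 genes passed, beside 1.81% of all.

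The size of the differences was small for most of the list. In 31 of 37 genes the fold was under 1.5, and for 21 of 37 the 95% confidence interval lay within a 2-fold change in either direction. The mean was higher in Bmi1 for 29 of 37 and lower for 8, against 45.7% and 54.3% of all tested genes. The median log2 difference was 0.16, against -0.03 over all tested genes. Over the 37 genes the median was 0.18, 0.06, 0.27 and 0.26 in pairs 1 to 4. Without centring of the arrays 32 of 37 were higher, and with centring on all probe sets or quantile normalisation 34 of 37 were. The list's median lay 0.19 above that of all tested genes, a distance that centring cannot change, and 0.26 above it with array weights and 0.28 with probe sets averaged, where 28 of 37 were higher. In 12 genes all 4 pairs of the same replicate number were higher in Bmi1, and in 1 gene, Pdk4, all were lower, while 11.4% and 15.9% of all tested genes did so. The groups did not overlap in 3 of 37, Slc2a3, Pfkl and Pdk1, all higher in Bmi1, against 5.33% of all tested genes (2.42% higher and 2.91% lower).

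**Figure D1:**
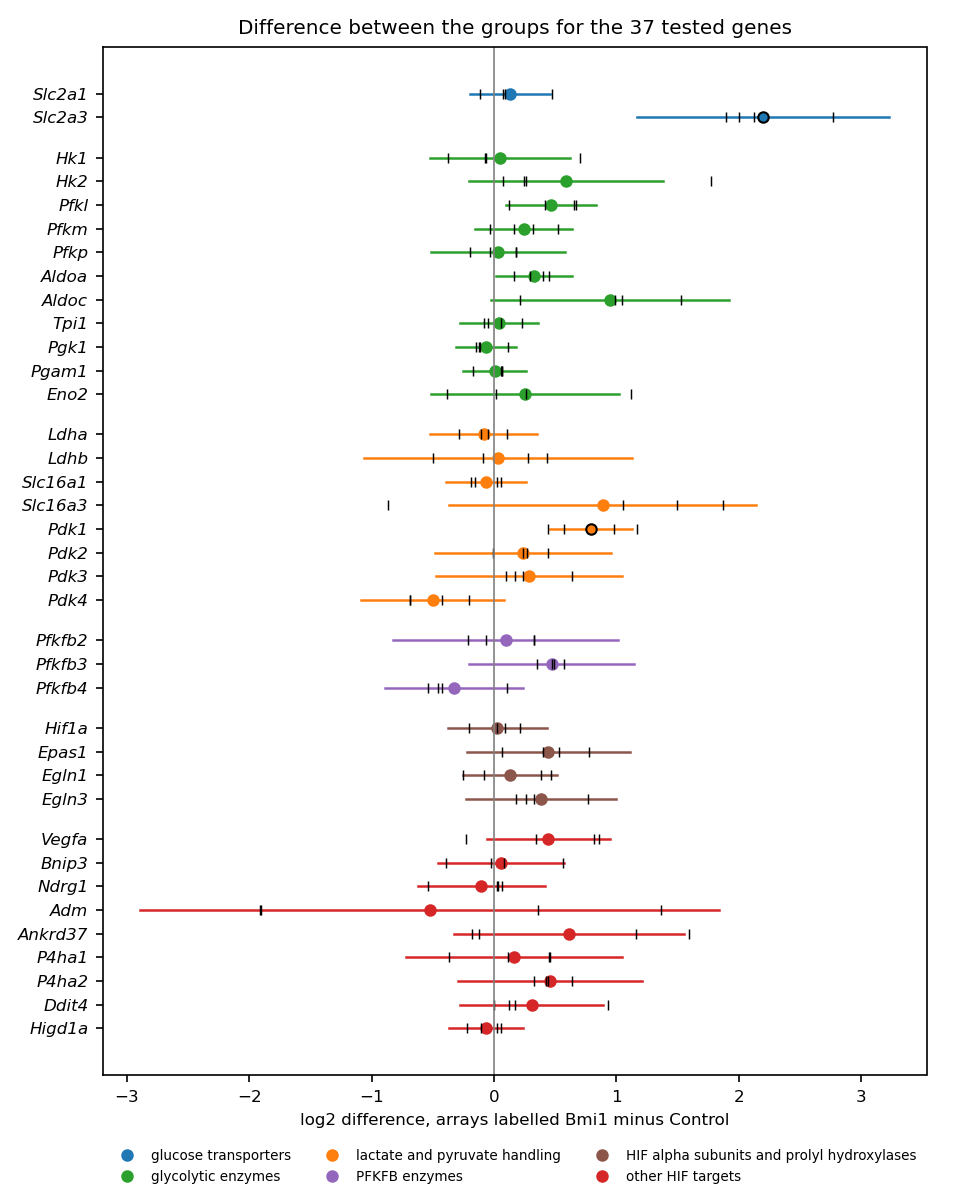
Log2 difference between the arrays labelled Bmi1 and Control for each of the 37 tested genes, by role. Points are the difference of group means with its 95% confidence interval from limma without a block, ticks are the 4 pairs of the same replicate number, and a black outline marks an adjusted p under 0.05 with the replicate block. Slc2a3 (2.20) and Pdk1 (0.79) carry the outline, and most other intervals cross 0.

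Of the glucose transporters, Slc2a3 (GLUT3), a high-affinity transporter known from neurons, was higher in Bmi1. Its signals were 42.3, 35.7, 21.6 and 113 in Control replicates 1 to 4 and 212, 164, 181 and 441 in Bmi1 replicates 1 to 4. The groups did not overlap, and replicate 4 was the highest array in each. The means were 53.2 ± 40.8 and 249 ± 129 (SD, n = 4 each). On the log2 scale Slc2a3 differed by 2.20 (SE 0.46, 95% confidence interval 1.17 to 3.23, adjusted p = 0.120). With the replicate block Slc2a3 rose (SE 0.18, adjusted p = 0.00527), and it passed with the block when any 1 pair was left out (adjusted p 0.00938 to 0.0238). Without Control replicate 4 it passed also with no block (adjusted p = 0.0475).

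A second probe set of Slc2a3 gave a log2 difference of 2.06, higher in 4 of 4 pairs, with an adjusted p of 0.00677 when every probe set was tested with the block. Another pair of probe sets of the gene was at background, above it on 0 and 1 of the 8 arrays. Of this pair the first was higher in Bmi1 in 1 of 4 pairs of arrays and the second in 0. Whether the 2 brighter probe sets read this gene alone was not tested. With all probe sets of Slc2a3 averaged the log2 difference was 0.97. The summed signal of 7 macrophage and leukocyte markers was likewise highest in replicate 4 of each group, at 2799 and 2481, of which Cd14 made 2425 and 1960. Its ranges were 532 to 2799 in Control and 667 to 2481 in Bmi1. Without Cd14, left out after its values were seen, they were 267 to 693 and 172 to 521. The 4 tested markers had the lower mean in Bmi1, the general leukocyte marker Ptprc was above background on 1 array, and the part of such cells in the Slc2a3 values was not tested. In bulk samples such as these, more cells of a type and more RNA per cell cannot be told apart.

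Slc2a1 (GLUT1), the transporter most often cited as a HIF-1 target, showed no such separation. Its signals were 561, 798, 729 and 883 in Control and 834, 782, 816 and 962 in Bmi1. Control 1 was low and the other 7 arrays overlapped. The log2 difference was 0.13 (SE 0.15, interval -0.20 to 0.46, adjusted p = 0.953), and its other probe sets gave 0.08 and 0.04. Slc2a2, the low-affinity transporter of hepatocytes and outside the list, ranged from 254 to 1117 in Control and from 186 to 1515 in Bmi1 (log2 difference -0.41, adjusted p = 0.974).

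**Figure D2:**
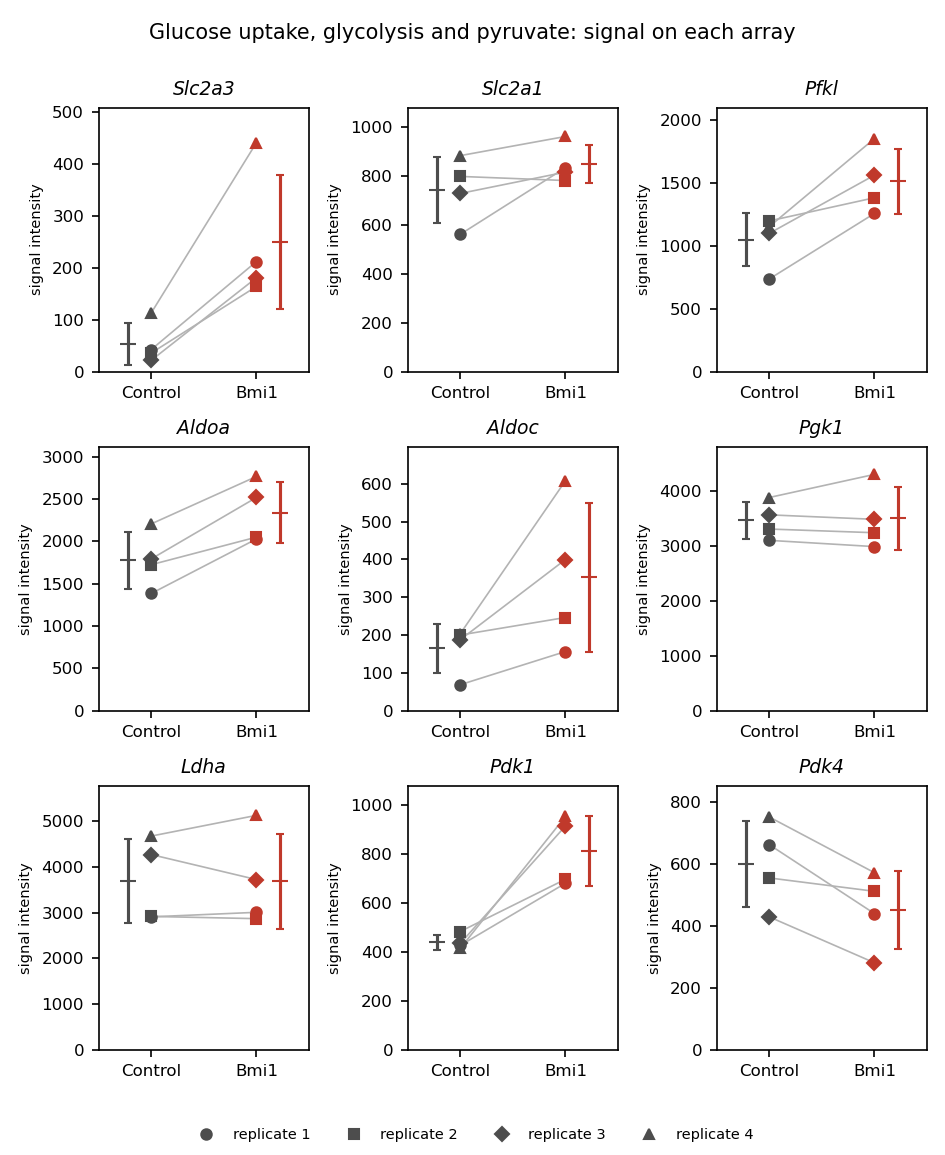
Signal intensity (linear scale from 0) of 9 genes on each of the 8 arrays, with lines joining arrays of the same replicate number. Bars beside the points are the group mean ± SD (n = 4). The Slc2a3, Pfkl and Pdk1 groups are separate, Pdk4 is lower in Bmi1 in 4 of 4 pairs, and Pgk1 and Ldha overlap.

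Of the 11 tested glycolytic enzymes 10 had a higher mean in Bmi1, with a median log2 difference of 0.25, and none passed in either model. Counted among the 10, Hk1 (0.05), Pfkp (0.03), Tpi1 (0.04) and Pgam1 (0.01) changed sign in 5, 8, 5 and 7 of 29 other settings. With array weights 8 of 11 were higher. With Ldha and Ldhb counted in, 11 of 13 were higher and the median was 0.05. The median over the 11 enzymes was 0.32, 0.12, 0.06 and 0.12 in pairs 1 to 4. Control 1 had the lowest signal of the 8 arrays for Hk1, Hk2, Pfkl, Pfkp, Aldoa, Aldoc, Tpi1 and Pgam1. For Pfkm, Pgk1 and Eno2 another array was lowest. Control 1 was also the array with the high Gapdh ratio, whose part in these values was not tested. The member with separated groups was Pfkl, the liver form of phosphofructokinase, which catalyses the committed step. Its signals were 736, 1198, 1099 and 1153 in Control and 1257, 1382, 1562 and 1853 in Bmi1. Every Bmi1 array was above every Control array, by a narrow margin between Control 2 and Bmi1 1. The log2 difference was 0.47 (SE 0.17, interval 0.10 to 0.84), with an adjusted p of 0.452 without and 0.0733 with the block. A pair of further probe sets of Pfkl gave 0.48 and 0.56, each higher in 4 of 4 pairs on the uncentred signals.

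Aldoa, the aldolase that splits fructose bisphosphate in most tissues, had signals of 1383, 1723, 1792 and 2205 in Control and 2027, 2049, 2517 and 2765 in Bmi1. Control 4 lay above Bmi1 1 and 2, so the groups overlapped, while each pair was higher in Bmi1 by 0.16 to 0.45. The log2 difference was 0.33 (SE 0.14, adjusted p = 0.590, and 0.0822 with the block), and 4 of its 5 probe sets were higher in 4 of 4 pairs. Aldoc, the aldolase known from brain, went from 165 ± 64.6 to 353 ± 198 (SD, n = 4 each), with a log2 difference of 0.95 (SE 0.43, adjusted p = 0.670, and 0.0524 with the block). Control 1, at 68.6, was the lowest array, and the other Control arrays at 188 to 203 overlapped the Bmi1 arrays at 156 to 608. Pfkl and Aldoa passed with the block in the settings without centring and with quantile normalisation, and Aldoc in those without centring and with centring on all probe sets.

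The hexokinases, which trap glucose in the cell, did not pass. Hk2, the inducible form, was 105, 263, 253 and 450.5 in Control and 394, 332, 323 and 484 in Bmi1 (log2 difference 0.59, SE 0.35, adjusted p = 0.821). Its pair 1, at 1.77, stood apart from the others at 0.07 to 0.27, and Control 1 was the array with the high Gapdh ratio, whose part in this was not tested. Hk1 had a log2 difference of 0.05 and was higher in Bmi1 in 1 of 4 pairs. The muscle and platelet phosphofructokinases Pfkm and Pfkp differed by 0.25 and 0.03.

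Pgk1, Tpi1 and Pgam1 were close between the groups. Pgk1, phosphoglycerate kinase, had 3104, 3311, 3569.5 and 3886 in Control and 2990.3, 3244, 3488 and 4307 in Bmi1, and the Bmi1 range took in the whole Control range. Its log2 difference was -0.07 (SE 0.11, interval -0.31 to 0.18). Triose phosphate isomerase Tpi1 (0.04, interval -0.27 to 0.36) and phosphoglycerate mutase Pgam1 (0.01, interval -0.25 to 0.27) lay as near to 0. The Pgk1 signals were 51.7 to 70.6% of the highest value on their array and those of Tpi1 35.9 to 55.0%. Pgk1 changed sign in 8 of 29 other settings, Tpi1 in 5 and Pgam1 in 7, so no direction is given for them. Eno2, the neuronal enolase, was dim, at 6.97 to 27.3 over all arrays and above background on 7 of 8, with a difference of 0.25 (SE 0.34).

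Among the genes of lactate and pyruvate handling Pdk1, the kinase that inhibits pyruvate dehydrogenase, was higher in Bmi1. Its signals were 427, 484, 435 and 415 in Control and 681, 698, 916 and 955 in Bmi1. The Control arrays lay close together, every Bmi1 array was above them, and Bmi1 3 and 4 were the highest. The means were 440.0 ± 30.3 and 812 ± 143 (SD, n = 4 each). On the log2 scale Pdk1 differed by 0.79 (SE 0.15, interval 0.46 to 1.13, adjusted p = 0.103). With the replicate block Pdk1 rose (SE 0.14, adjusted p = 0.0284). Leaving out any 1 pair raised the blocked adjusted p to between 0.0524 and 0.118, so the call rests on all 4 pairs. Among the 29 other settings, the log2 difference stayed between 0.67 and 0.92 wherever lower- and higher-numbered replicates were both kept. Fits within the lower or the higher replicate numbers alone gave 0.51 and 1.07, outside that range.

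The Pdk1 difference was 0.51 within replicates 1 and 2 and 1.07 within replicates 3 and 4. The test of that change, the interaction of group with that split of the replicates, gave an unadjusted p of 0.0292 and an adjusted p of 0.9995 in limma. A pair of other probe sets of Pdk1 gave log2 differences of 0.97 and 0.55, each higher in 4 of 4 pairs, and the remaining one was dim. The other kinases of the family did not pass. Pdk4, the form raised by fasting in liver, had 663, 555, 429 and 753 in Control and 440.1, 512, 281 and 572 in Bmi1. It was lower in Bmi1 in 4 of 4 pairs although the groups overlapped (log2 difference -0.50, SE 0.26, adjusted p = 0.761, and 0.0718 with the block). Pdk2 (0.24) and Pdk3 (0.29) had a higher mean and adjusted p-values of 0.966 and 0.956.

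Lactate dehydrogenase A, which reduces pyruvate to lactate and is a classical HIF-1 target, did not separate the groups. Ldha signals were 2905, 2914, 4267 and 4672 in Control and 3004, 2866, 3721 and 5125 in Bmi1. Within each replicate number the arrays were close, and replicates 3 and 4 were the high ones in both groups. The log2 difference was -0.08 (SE 0.20, interval -0.52 to 0.35), its sign changed in 6 of 29 other settings, and its signals reached 52.6 to 70.6% of the highest on the array. Ldhb, the form that favours the reverse reaction, differed by 0.03 (SE 0.49). Of the lactate transporters, Slc16a1 differed by -0.06 (interval -0.39 to 0.27). Slc16a3, the exporter of glycolytic cells, was 13.4, 40.9, 20.2 and 64.4 in Control and 48.1, 22.3, 89.7 and 140.5 in Bmi1, and pair 2 ran against the other 3 (log2 difference 0.89, SE 0.56, adjusted p = 0.843).

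The PFKFB enzymes make and remove fructose 2,6-bisphosphate, the activator of phosphofructokinase, and none passed. Pfkfb3, the form with high kinase activity, had 75.0, 102, 49.9 and 78.0 in Control and 121, 152, 68.9 and 114 in Bmi1. Each pair was higher in Bmi1, by 0.35 to 0.57, and the groups overlapped (log2 difference 0.47, SE 0.30, adjusted p = 0.854, and 0.124 with the block). Pfkfb4 had 16.9, 32.3, 33.6 and 34.2 in Control and 20.0, 24.7, 23.5 and 24.5 in Bmi1. It was lower in Bmi1 in 3 of 4 pairs, the exception being pair 1 (log2 difference -0.33, SE 0.25, adjusted p = 0.912). Pfkfb2 differed by 0.10 (SE 0.41).

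The transcripts of the factors themselves overlapped between the groups. Hif1a (HIF-1 alpha) had 1547, 999.5, 1402 and 1449 in Control and 1757, 1228, 1289 and 1501 in Bmi1 (log2 difference 0.03, SE 0.18, interval -0.38 to 0.43). Epas1 (HIF-2 alpha) had 658, 941, 1474 and 1719 in Control and 1212, 1318, 1636 and 2539 in Bmi1. Each pair was higher in Bmi1, by 0.07 to 0.78, but the spread over replicate numbers was wider than that (log2 difference 0.44, SE 0.30, adjusted p = 0.868, and 0.104 with the block).

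The prolyl hydroxylases mark both factors for degradation, and Egln3 is itself induced by them. Egln3 had 484, 536, 582 and 862 in Control and 649.7, 646, 744 and 1499 in Bmi1. Replicate 4 was the highest in each group, all pairs were higher in Bmi1, and the groups overlapped (log2 difference 0.38, SE 0.27, adjusted p = 0.891, and 0.149 with the block). Egln1, the main oxygen sensor, had 419, 406, 327 and 300.5 in Control and 375, 406, 455 and 425 in Bmi1. Its difference was 0.13 (SE 0.17), made of -0.17 within replicates 1 and 2 and 0.43 within replicates 3 and 4 (interaction unadjusted p = 0.0356, adjusted p = 0.9995 in limma). A second Egln1 probe set did not show that split. It was higher in Bmi1 in 4 of 4 pairs, replicates 1 and 2 included, with a log2 difference of 0.41.

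**Figure D3:**
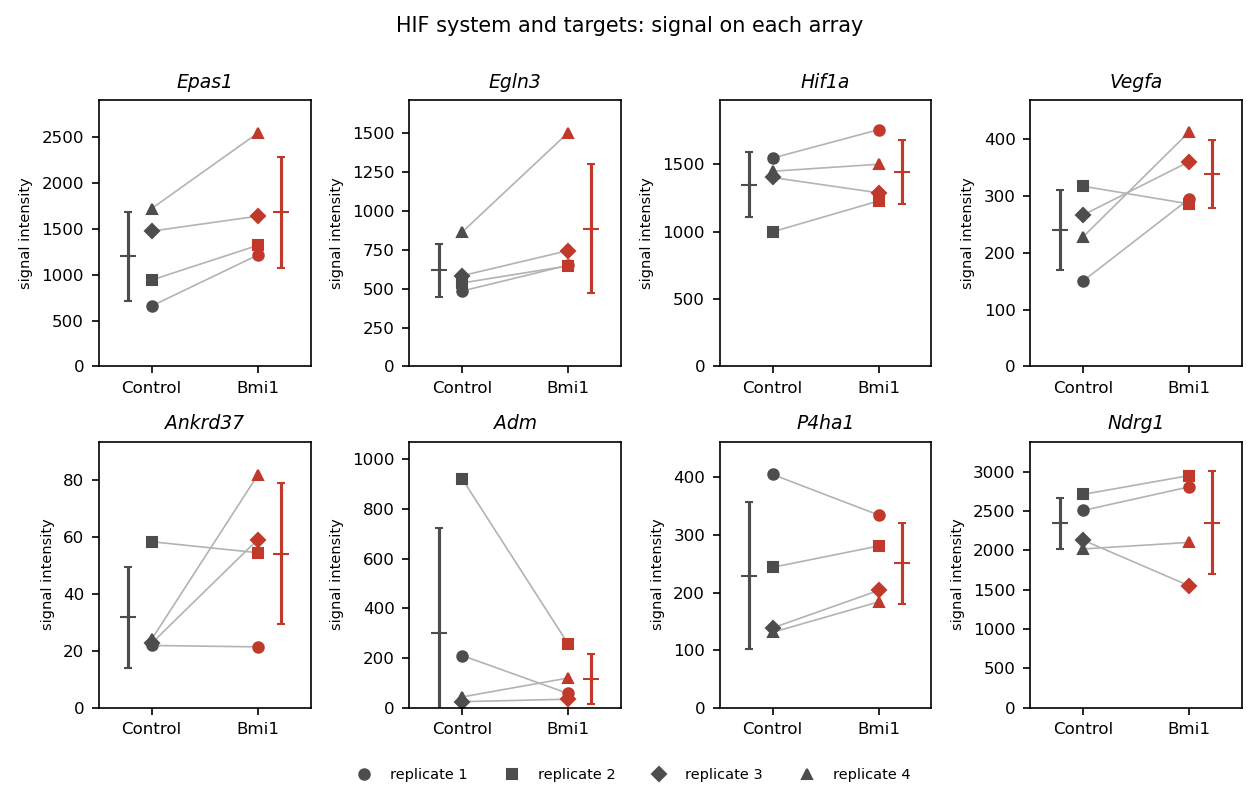
Signal intensity (linear scale from 0) of 8 genes of the HIF system and its targets on each of the 8 arrays, with lines joining arrays of the same replicate number. Bars are the group mean ± SD (n = 4), and the lower bar of Adm in Control is cut at 0. No panel shows separated groups, and Adm and Ankrd37 run in different directions in different pairs.

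None of the 9 other HIF targets that were tested passed in either model, and their median log2 difference was 0.16. Vegfa, the vascular growth factor, had 150.1, 316, 266 and 228 in Control and 294, 285, 359 and 412 in Bmi1. Control 1 was the lowest array and pair 2 was lower in Bmi1 (log2 difference 0.45, SE 0.23, interval -0.06 to 0.95, adjusted p = 0.744). A second probe set gave 0.58, higher in 4 of 4 pairs. Ankrd37, an ankyrin-repeat gene strongly induced by low oxygen, had 21.9, 58.4, 22.7 and 24.0 in Control and 21.4, 54.5, 59.1 and 81.8 in Bmi1. Its pairs were -0.12, -0.18, 1.16 and 1.59 (log2 difference 0.61, SE 0.42, adjusted p = 0.881). They were higher in Bmi1 only in replicates 3 and 4, but the interaction had an unadjusted p of 0.063 and an adjusted p of 0.9995 in limma. Control 2, at 58.4, stood apart from the other Control arrays.

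Adm, the gene of the vasodilator adrenomedullin, had the widest spread within groups of the 37. It had 209.9, 922, 24.1 and 43.1 in Control and 57.1, 257, 34.1 and 119 in Bmi1. Pairs 1 and 2 were each lower in Bmi1 by a log2 difference of -1.91 and pairs 3 and 4 higher by 0.36 and 1.36, so the mean difference of -0.52 (SE 1.05) describes no single pair, and the interaction had an unadjusted p of 0.0553 (adjusted p = 0.9995 in limma). The other Adm probe set differed by -0.17 and was higher in Bmi1 in 1 of 4 pairs, at 43.7, 127, 13.7 and 30.4 in Control and 29.4, 78.7, 13.3 and 54.1 in Bmi1, so pair 3 was not higher there. The summed signal of the fibroblast and stellate markers was 14922, 8524, 5798 and 4875 in Control and 4356, 7937, 5829 and 3790 in Bmi1, and its part in the Adm values was not tested.

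The collagen prolyl hydroxylases P4ha1 and P4ha2 differed by 0.16 and 0.46. P4ha2 was higher in Bmi1 in 4 of 4 pairs, by 0.33 to 0.64 (SE 0.33, adjusted p = 0.904, and 0.0670 with the block), and it passed with the block when arrays were not centred. Ddit4, an inhibitor of mTORC1, was higher in 4 of 4 pairs, but the first by 0.0033 and the fourth by 0.93, where Bmi1 4 at 1322 stood above the other Bmi1 arrays at 560.4 to 794 (log2 difference 0.31, adjusted p = 0.933). The mitophagy gene Bnip3 (0.06, interval -0.46 to 0.58), Ndrg1 (-0.10, interval -0.62 to 0.41) and the mitochondrial gene Higd1a (-0.06, interval -0.37 to 0.24) showed no difference beyond the spread, and each changed sign in other settings (4, 9 and 7 of 29).

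Replicate number separated more of the genes than the group did. Between replicates 3 and 4 and replicates 1 and 2, with the group as a term, 9 of 37 passed (limma, adjusted p at or under 0.05), 3 higher and 6 lower, against 24.3% of all tested genes (12.1% higher and 12.2% lower), so the listed genes did not stand apart in it. Higher in replicates 3 and 4 were Ldha (log2 difference 0.50, SE 0.10, adjusted p = 0.0103), Pdk3 (0.90, SE 0.16, adjusted p = 0.00657) and Epas1 (0.75, SE 0.16, adjusted p = 0.0127). The 4 arrays of replicates 1 and 2 lay at 2866 to 3004 for Ldha and those of replicates 3 and 4 at 3721 to 5125, with no overlap. Pdk3 lay at 47.2 to 60.8 and 78.6 to 132, and Epas1 at 658 to 1318 and 1474 to 2539.

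Lower in replicates 3 and 4 were Ldhb (-1.34, SE 0.22, adjusted p = 0.00533), Pfkfb2 (-1.11, adjusted p = 0.00567), P4ha1 (-1.03, adjusted p = 0.00953), Ndrg1 (-0.60, adjusted p = 0.00803), P4ha2 (-0.77, adjusted p = 0.0316) and Adm (-2.35, SE 0.74, adjusted p = 0.0459). Ldhb went from 428 to 619 in replicates 1 and 2 to 138 to 269.8 in replicates 3 and 4, and P4ha1 from 244 to 405 to 131 to 204. For Adm and P4ha2 the 2 sets of arrays overlapped. Ldha and Ldhb thus differed in opposite directions. These calls moved with the scaling, since Ldha did not pass with quantile normalisation, and of the 6 lower genes only Ldhb and Adm passed with centring on all probe sets, where 24 of 37 passed in all. In the same contrast 9 of 11 hepatoblast and hepatocyte markers passed as higher in replicates 3 and 4, beside 12.1% of all tested genes. Of 10 fibroblast and stellate markers 3, among them Acta2 and Col1a1, passed as lower, beside 12.2%. The median log2 difference was 0.52 for the first list and -1.56 for the second, so more of the second lay lower than passed. The part of these markers in the values was not tested. The interaction of group with this split called 0 of 37 and 0% of all tested genes (limma), with an unadjusted p under 0.05 for 2 of 37 (Pdk1 and Egln1) and for 301 of all.

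**Figure D4:**
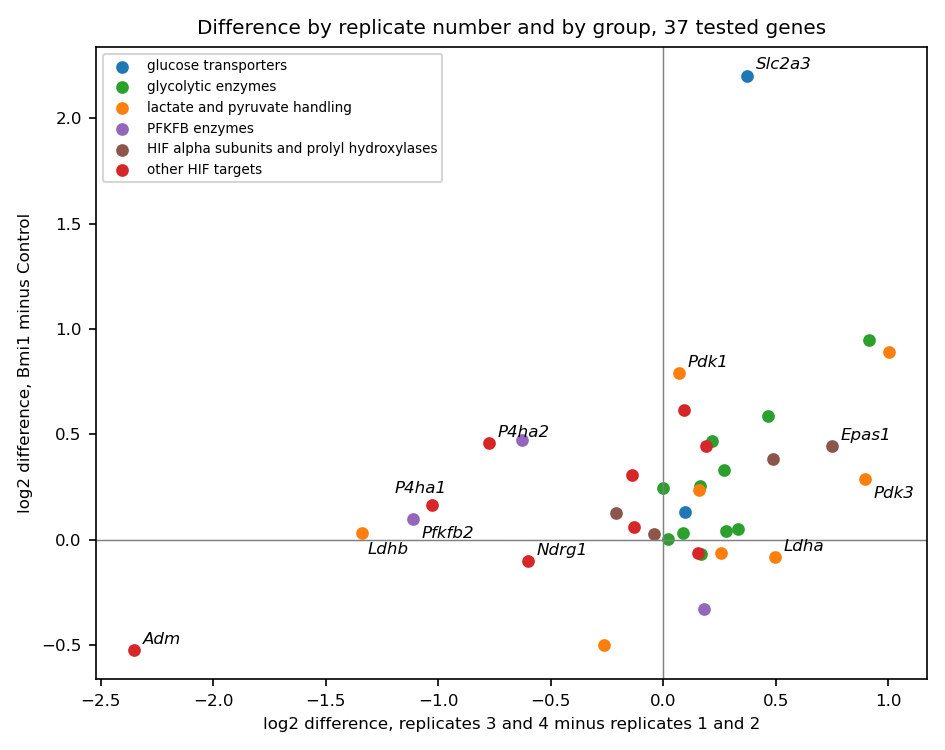
Log2 difference between replicates 3 and 4 and replicates 1 and 2 (horizontal) against the log2 difference between the Bmi1 and Control arrays (vertical) for the 37 tested genes, coloured by role. Named points passed in the contrast of replicates, and Slc2a3 and Pdk1 are named for the group contrast. Slc2a3 and Pdk1 lie high near the vertical axis (0.37 and 0.07), whereas Ldhb and Adm lie far left.

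Genes around the list were read in the same fits, from written lists. Of 8 tested further glycolytic genes 2 had a higher mean, the median log2 difference was -0.29 and none passed. Pkm, the pyruvate kinase of proliferating tissue, was 1451 ± 255 in Control and 1958 ± 322 in Bmi1 (log2 difference 0.36, SE 0.14, adjusted p = 0.551, and 0.0670 with the block), and the muscle enolase Eno3 differed by -0.73 (adjusted p = 0.541, and 0.0682 with the block). Of 9 tested genes of pyruvate entry and the dehydrogenase complex 7 had a lower mean and none passed. The mitochondrial pyruvate carrier Mpc1 (-0.51, adjusted p = 0.714) and the phosphatase Pdp1, which reverses the PDK kinases (-0.30, adjusted p = 0.857), had the smallest p. Of 6 pentose phosphate genes none passed, Pgd (-0.17) and Taldo1 (-0.07) having the smallest p.

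Of 14 tested gluconeogenesis and glycogen genes 1, Pck1, fell without a block and 4 fell with it, beside 0.055% and 1.96% of all tested genes that were called lower. The list did not move one way, since 6 of 14 had a higher mean and the median log2 difference was -0.25. Pygl, the liver glycogen phosphorylase, had a higher signal in Bmi1 in 4 of 4 pairs (0.67, adjusted p = 0.808, and 0.0630 with the block). The glucose 6-phosphate transporter Slc37a4 had 888, 1636, 603 and 616 in Control and 482, 1305, 244 and 385 in Bmi1, lower in 4 of 4 pairs while the groups overlapped (log2 difference -0.87, SE 0.51, adjusted p = 0.815, and 0.0309 with the block). That call was lost with replicates 1 and 2 against 3 and 4 as the block (adjusted p = 0.230), with the replicate block and centring on all probe sets (0.0799), and with pair 1, 3 or 4 left out (up to 0.0876). The others were Fbp1, which reverses the phosphofructokinase step (-2.93, adjusted p = 0.00527 with the block and 0.0594 without), G6pc (-1.55, 0.0112 and 0.232) and Pck1 (-1.74, 0.0112 and 0.0434). Fbp1 ranged from 283 to 761 in Control and from 19.3 to 105 in Bmi1, with no overlap.

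Of 14 other genes of the HIF system none passed, with Eloc (-0.24, adjusted p = 0.659) and Vhl (0.24, adjusted p = 0.864), both of the ubiquitin ligase for the factors, having the smallest p. Of 23 tested further HIF targets 14 had a higher mean, beside 45.7% of all tested genes. None passed without a block and 3 did with it, beside 3.33% of all. Ak4, a mitochondrial adenylate kinase, had 70.0, 114, 152 and 201 in Control and 191, 239, 388 and 441 in Bmi1. All pairs were higher, with Control 4 above Bmi1 1 (log2 difference 1.15, SE 0.33, adjusted p = 0.00825 with the block and 0.273 without). Ppp1r3c, a glycogen-targeting phosphatase subunit, had 70.4, 49.4, 87.6 and 102 in Control and 133, 136, 161 and 277 in Bmi1, with no overlap (1.06, 0.0192 and 0.232), though its adjusted p with the block reached 0.0701 with pair 4 left out, and it also missed the threshold without pair 2 or 3. Insig2, a regulator of sterol synthesis, was lower, at 673 ± 252 in Control and 443 ± 158 in Bmi1 (-0.67, 0.0202 and 0.733). The Insig2 call was lost with replicates 1 and 2 against 3 and 4 as the block (0.0665), with the replicate block and centring on all probe sets (0.130), and with pair 2 or 3 left out (0.0944 and 0.0868).

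**Figure D5:**
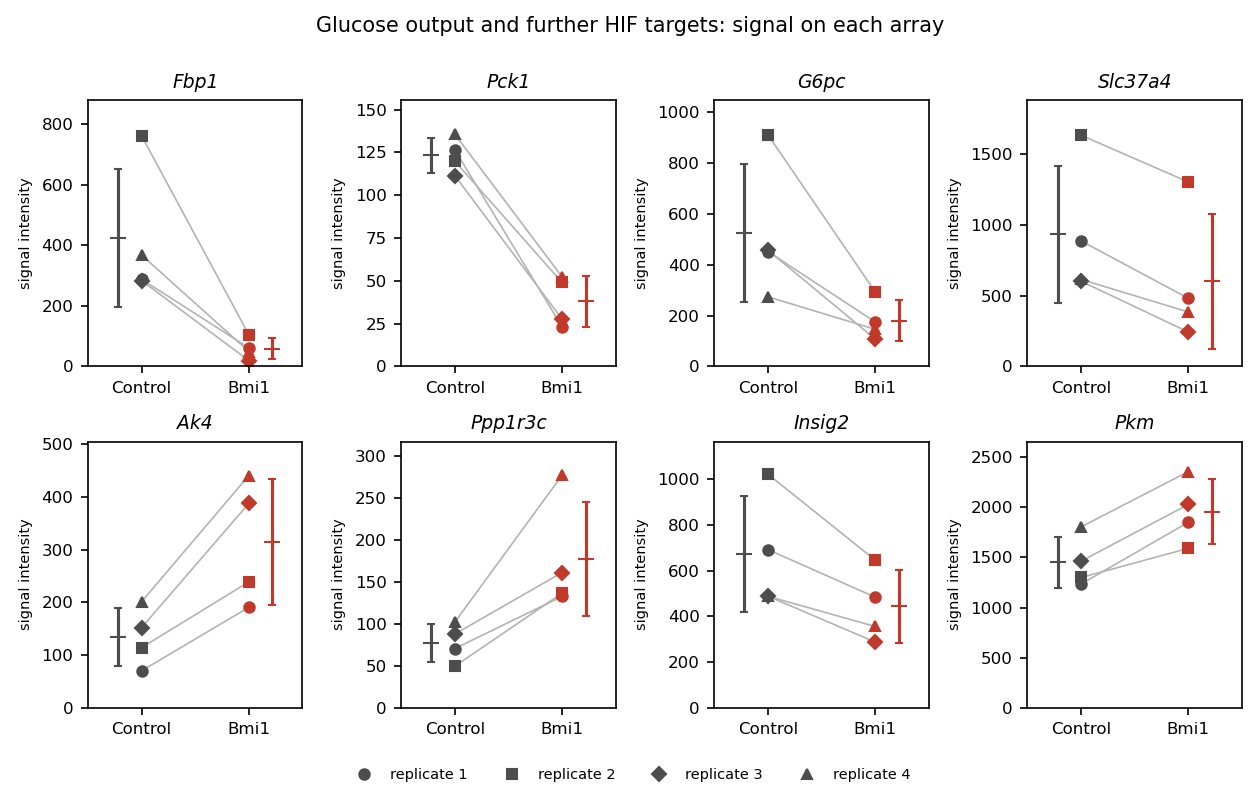
Signal intensity (linear scale from 0) of 8 genes outside the list on each of the 8 arrays, with lines joining arrays of the same replicate number and bars for the group mean ± SD (n = 4). Fbp1, Pck1 and Ppp1r3c have separated groups, and every pair runs the same way in each panel.

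Some markers of cell types differed between the groups beside these genes. The summed signal of the 5 measured biliary markers was 2174 to 3301 in Control and 4032 to 4351 in Bmi1, without overlap, and Epcam and Cdh1 rose with the block (adjusted p = 0.0220 and 0.0255). Krt19 had separated groups but did not pass (log2 difference 0.56, adjusted p = 0.127 with the block). Krt7 (0.25) and Sox9 (0.27) overlapped between the groups, were higher in 3 of 4 pairs and did not pass (adjusted p = 0.400 and 0.462 with the block). Of 11 hepatoblast and hepatocyte markers 8 had a lower mean in Bmi1 and none passed. The fibroblast and stellate sum was 4875 to 14922 in Control and 3790 to 7937 in Bmi1, with 9 of 10 tested markers lower. Control 1 had the highest sum, and the median log2 difference over the markers was -3.36, -0.17, -0.50 and -0.35 in pairs 1 to 4. Of the lower markers Acta2 fell with the block (adjusted p = 0.0397), while the exception, Reln, rose with it (log2 difference 1.55, adjusted p = 0.00761, higher in 4 of 4 pairs). The mesothelial sum was 98.5 to 546 and 40.4 to 136, with 3 of 3 lower, of which Msln fell with the block (adjusted p = 0.0483). The highest mesothelial sum was again that of Control 1, where the untested marker Gpm6a read 273, against 7.01 to 14.0 on the other Control arrays. Of 8 endothelial markers only Egfl7 was tested, and it rose with the block (log2 difference 0.95, adjusted p = 0.0205, and 0.289 without). The endothelial sum was 119 to 238 and 244 to 352, but without Egfl7, left out after its values were seen, it was 35.4 to 67.5 in Control and 27.3 to 53.9 in Bmi1, which overlapped, so the separation lay in that 1 gene. Pecam1 and Tek were at background on all arrays. The erythroid sum was 15.4 to 77.4 and 16.1 to 25.3, and Alas2 was at background. Their part in the differences of Slc2a3, Pdk1 and the gluconeogenic genes was not tested.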

How the data were processed

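Affymetrix mouse arrays were analysed, 4 per group. The authors deposited linear intensities per probe set, and from the values these share a mean of 100 on every array once 2% is trimmed from both ends. The sources used here name no software for that scaling. Of 45101 probe sets, 34945 had 1 gene symbol, 932 several and 9160 none in the platform annotation, and 64 were controls. Single-symbol probe sets were used, the one with the highest mean log2 level standing for its gene. Values became log2(value + 3.78), where the constant is the median value divided by 4. It makes differences of dim genes understated. The test covered the 10916 of 18193 genes whose mean level reached the 40th percentile, and each array was centred on their median. Above background means above the 95th percentile of 27 bacterial control probe sets on the array. Pair counts for the further probe sets of a gene compare the deposited signals without centring. Those for the probe set that stands for a gene use centred values, so the 2 kinds of count can differ where a pair is close. limma 3.58.1 in R 4.3.3 (intensity trend, two-sided, Benjamini-Hochberg over all tested genes, threshold 0.05) had no block. The fit was tested on simulated data.

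For replicate numbers 1 to 4, the deviations of the Control and the Bmi1 array from their group means had correlations of 0.53, 0.49, 0.50 and 0.68. After removing the split of numbers 1 and 2 from 3 and 4 they were 0.23 for 1 and 2 and 0.36 for 3 and 4. Arrays of different numbers on the same side of that split had 0.12 to 0.48, the highest being close to the lowest matched value. The numbers were taken to pair the arrays on this limited check, and the fit with the replicate number as a block is given beside results it changed. That the cells of 1 number shared an experiment is not stated by the labels. The genes and lists were chosen with earlier results of these data known. Values were given for every array for genes that passed with or without the block, for those with separated groups and for the 2 genes of smallest p in each role. From each list of other genes, up to 4 that passed were named, or else the 2 of smallest p. Other genes were named after their values had been seen. Alternatives covered blocks, centring, quantile normalisation, pseudocounts, level filters, probe set rules, array weights and left-out arrays.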

Additional observations from a re-analysis of the deposited data

Results flagged for a closer look

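In 5 of 74 groups of 4 arrays, over the 37 tested genes, 1 array stood apart from the rest, by the share of the group's range that its gap to the nearest array took. Chance flags about 1 in 20 groups, or 3.7 of 74. Aldoc was lowest on Control 1, at 68.6 against 188 to 203 (gap 0.889 of the range). Eno2 was lowest on Control 2, at 6.97 against 19.9 to 21.6 (0.853). Pfkfb4 was lowest on Control 1, at 16.9 against 32.3 to 34.2 (0.963). Egln3 was highest on Bmi1 4, at 1499 against 646 to 744 (0.885). Ankrd37 was highest on Control 2, at 58.4 against 21.9 to 24.0 (0.935).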

How the results depend on the processing

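Of the 37 genes, 0 passed without a block in every setting with all 8 arrays and within replicates 1 and 2 or 3 and 4 alone, and 0 to 1 when an array was left out (Slc2a3, without Control replicate 4). With the replicate block 2 passed, with replicates 1 and 2 against 3 and 4 as the block 2, with the block and no centring 6, with centring on all probe sets 3 and with quantile normalisation 4. With the block and 1 pair left out 1 to 3 passed, Slc2a3 each time. Over all tested genes 18 passed; 28 without centring, 7 with quantile normalisation, 30 with the higher pseudocount, 0 with the 60th percentile filter (442 at unadjusted p under 0.05, limma), 9 with every probe set tested, 37 with array weights, 363 with the replicate block, 198 with replicates 1 and 2 against 3 and 4 as the block, 409, 477 and 333 with the block and no centring, centring on all probe sets or quantile normalisation, 0 to 20 with an array left out, 187, 140, 94 and 207 with the block and pair 1, 2, 3 or 4 left out, and 0 within replicates 1 and 2 or 3 and 4 alone (824 and 1012 at unadjusted p under 0.05). Between replicates 3 and 4 and 1 and 2, 9 of the 37 passed; 24 did with centring on all probe sets, 16 with array weights and 7 to 11 with an array left out. The interaction called 0 in 10 other settings. The cause of these changes was not tested. Members near 0 changed sign in some settings without being called in any of those. The number of arrays limits what could be detected, and dim genes such as Eno2 and Pdk2 have the understated differences that the constant gives.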
